A study of Mus musculus with 24 samples.

Results

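The genes described here are 10 members of the death receptor pathways: the ligands Fasl, Tnf and Tnfsf10 (which encodes TRAIL), the receptors Fas, Tnfrsf1a, Tnfrsf1b and Tnfrsf10b, and the proximal effectors Casp8, Cflar and Ripk3. They are 10 of 49315 genes in the count tables, and all 10 were among the 22280 genes with enough counts to test. They were picked by name, in a set selected on the level of Fas, which was seen to be higher after D2C7-IT at day 0. All measures of that contrast are therefore given as a description, and Fas is given no test in any comparison that holds those tumours.

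Polyadenylated RNA was sequenced from 24 mouse brain tumours, 3 in each of 8 groups. Each mouse had received 200000 CT-vIII cells, a line of the CT-2A glioma transduced with mouse EGFR variant III and firefly luciferase, in the right hemisphere. Treatment was infused into the brain by osmotic pump (0.5 µl/h over 72 h), starting on day 6 after implantation and ending on day 9, and tumours were taken at pump removal (day 0) or 3 days later (day 3). The 4 treatments on each day were vehicle (2% MSA-PBS carrying 100 µg of rat IgG2a), aCD40 (10 to 300 µg of the CD40 antibody FGK4.5), D2C7-IT (0.2 µg of an immunotoxin that binds EGFR and its variant and blocks translation), and the combination of both agents. All groups carried the same graft, a single line, and all had the pump. Which aCD40 dose each tumour received, and the strain, sex and age of the mice, were not given in the sources used here. Tumours of different aCD40 doses may therefore share a group.

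Death receptors are members of the TNF receptor family whose ligands are made as trimers on immune and other cells. Fas ligand and TRAIL bind Fas and the TRAIL receptor, which recruit caspase-8 through the adaptor FADD, and caspase-8 then starts apoptosis. FLIP, the product of Cflar, resembles caspase-8 and holds it back, while RIPK3 starts necroptosis through MLKL when caspase-8 is inactive. TNF acts through TNFR1, which has a death domain and mostly drives NF-kB signalling, and through TNFR2, which has none. Glioma cells can carry Fas and TRAIL receptors, and microglia and macrophages are sources of TNF.

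Libraries held 24697576 to 48119840 counts in total. Levels below are in CPM, the counts divided by the TMM-scaled library total, for each tumour in replicate order or as mean ± SD over 3 tumours, and differences are log2 fold changes ± SE from edgeR. The tissue was not sorted, so fewer cells of a type and less RNA per cell cannot be told apart in any of these values. In 3 day 3 libraries, vehicle replicates 2 and 3 and aCD40 replicate 1, Egfr stood at 283 to 343 CPM, against 13.1 to 50.8 in the other 21. In the same 3 libraries the 7 graft and cell cycle markers summed to 1243 to 1505 CPM against 25.4 to 172, the 8 NK and cytotoxic markers to 74.6 to 127 against 1.45 to 27.2, and the 7 neuron markers to 1503 to 2639 against 3457 to 7139. They carry much of the weight of the day 3 vehicle and aCD40 means, and the leading differences that use them are also given without them. With them left out, vehicle at day 3 is 1 tumour, replicate 1.

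The 250 bases before the RefSeq start are shown for Fas, Tnf and Tnfsf10, which are among the members compared between D2C7-IT and the combination. They are from the GRCm38.p6 build, 5′ to 3′ on the strand of the gene, with matches to a searched motif in capitals:
Fas (chr19:34290409-34290658, plus strand): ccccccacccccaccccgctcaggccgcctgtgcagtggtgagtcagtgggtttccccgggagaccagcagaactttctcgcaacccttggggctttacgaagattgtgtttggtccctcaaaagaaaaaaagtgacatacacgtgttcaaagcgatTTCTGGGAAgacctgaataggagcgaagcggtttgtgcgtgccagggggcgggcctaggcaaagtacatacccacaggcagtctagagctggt
Tnf (chr17:35202008-35202257, minus strand): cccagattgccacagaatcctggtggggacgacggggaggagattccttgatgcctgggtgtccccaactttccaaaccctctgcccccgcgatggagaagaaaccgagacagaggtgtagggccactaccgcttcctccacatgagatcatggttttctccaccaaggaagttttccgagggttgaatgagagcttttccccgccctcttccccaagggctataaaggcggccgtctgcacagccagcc
Tnfsf10 (chr3:27316827-27317076, plus strand): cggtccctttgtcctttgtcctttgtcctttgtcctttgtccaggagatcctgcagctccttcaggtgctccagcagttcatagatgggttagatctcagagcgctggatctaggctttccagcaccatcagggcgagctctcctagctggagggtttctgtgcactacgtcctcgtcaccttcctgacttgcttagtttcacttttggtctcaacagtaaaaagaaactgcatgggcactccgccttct
Both strands of these windows were searched for the STAT motif TTCNNNGAA, for the paired GAAA motif of interferon response elements, for the NF-kB consensus and for the p53 half-site. The capitals in Fas mark 1 match to the STAT motif, 93 to 85 bases before the start, and the other windows shown have no match. Of 9 members with an entry in the RefSeq table, the STAT motif was found in 3 (Fas, Tnfrsf1a and Tnfrsf1b), the interferon motif in 1 (Tnfrsf1b), the p53 half-site in 1 (Fasl) and the NF-kB consensus in 0. Over all 32851 windows of that length the shares with a match were 7.02%, 2.98%, 7.13% and 7.25%, in that order. A match is a string of letters and no measurement of binding.

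The TNF receptors were the most abundant members per length in vehicle tumours at day 0, and Fasl was the least abundant. There, CPM per kilobase of exon was 7.72 for Tnfrsf1a and 3.52 for Tnfrsf1b, which encode TNFR1 and TNFR2. The regulators Cflar and Casp8 stood at 2.20 and 1.99 CPM per kilobase, and Fas at 1.22. Tnfsf10, Tnf, Ripk3, Tnfrsf10b and Fasl held 0.772, 0.447, 0.351, 0.306 and 0.103 CPM per kilobase. After D2C7-IT at day 0 the order was another one, with Tnf at 11.2 and Fas at 9.74 CPM per kilobase, next to 16.6 for Tnfrsf1a. Vehicle at day 0 had the lowest mean of the 8 groups for 8 of the 10 members, the exceptions being Tnf and Tnfsf10, which were lowest after D2C7-IT at day 3. With the 8 groups ranked by mean, 3 of 70 neighbouring pairs did not overlap. For Fas, D2C7-IT at day 0 stood above the combination at day 3, a description, since Fas was chosen on those D2C7-IT tumours. For Tnfsf10, aCD40 stood above D2C7-IT at day 0, and for Tnfrsf1a D2C7-IT stood above the combination at day 0. The share over all genes is not given here for this ranking, so the count is not read as few or many.

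**Figure D1:**
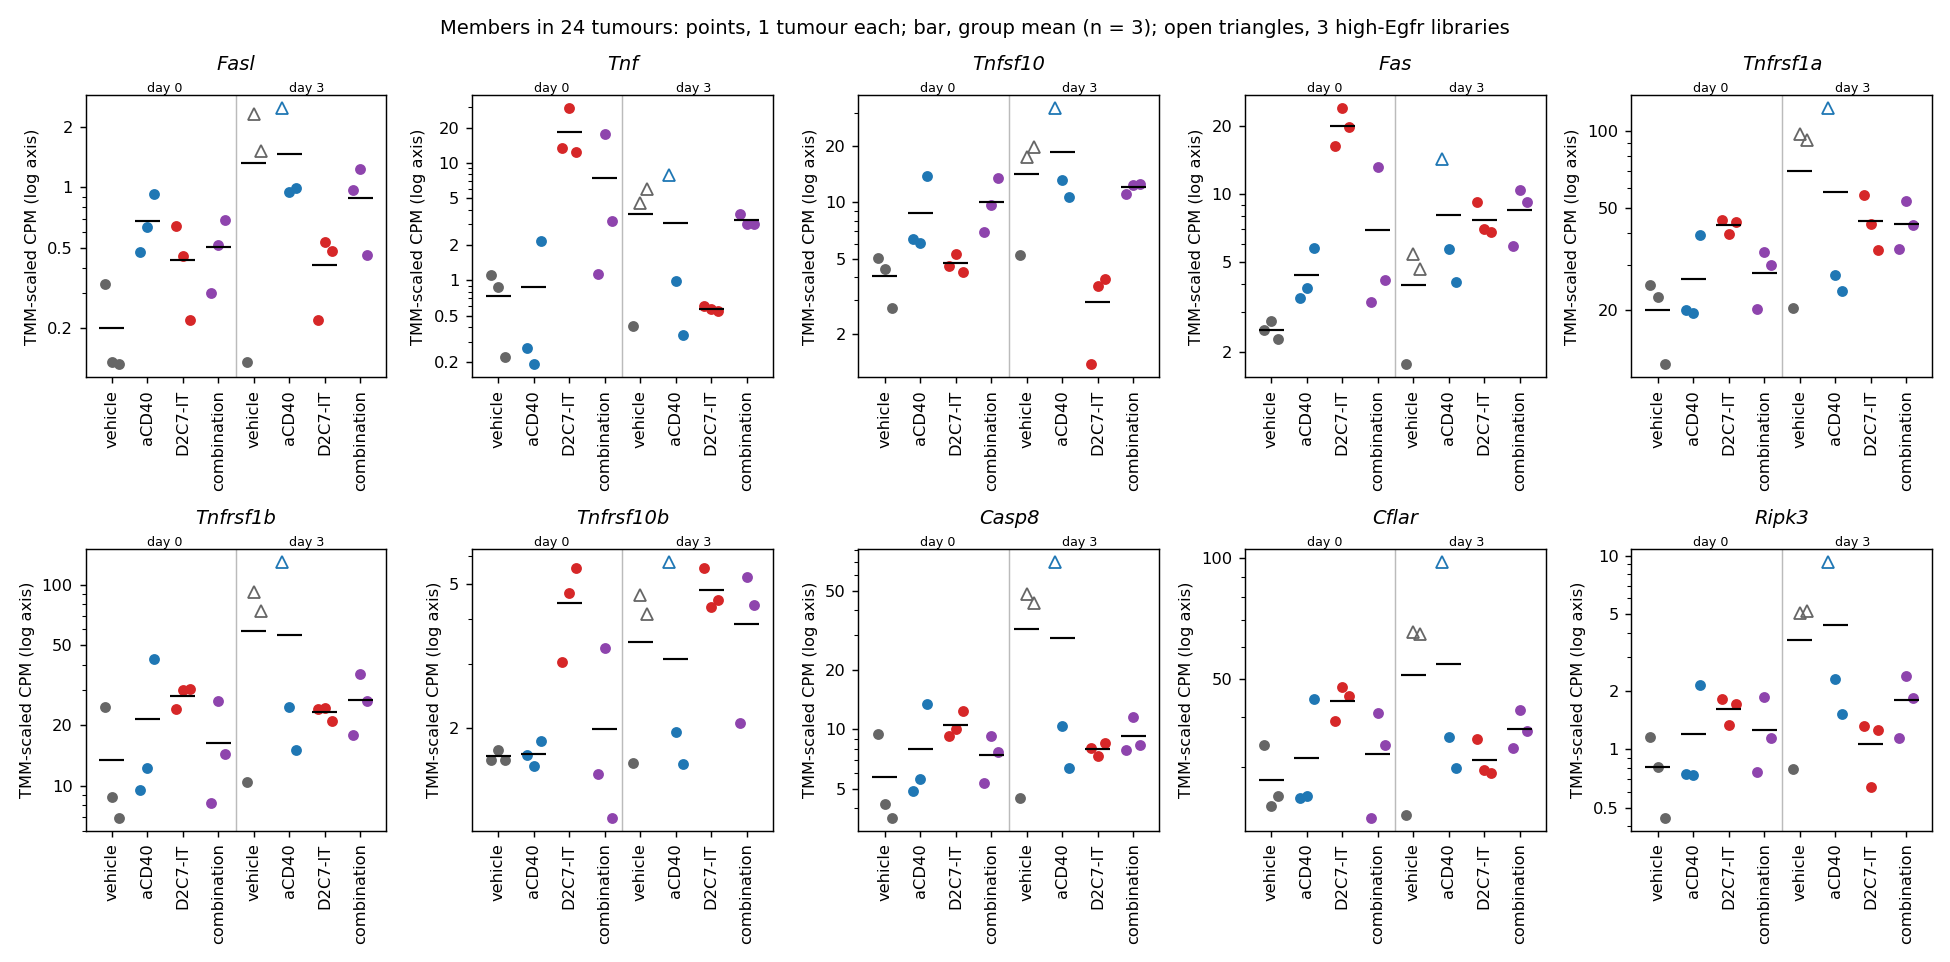
Levels of the 10 genes in each tumour (points, TMM-scaled CPM on a log axis) with the group mean (bar, n = 3), by treatment and day; open triangles are the 3 libraries of high Egfr. Fas and Tnf stand highest after D2C7-IT at day 0, at 16.4 to 24.02 and 12.3 to 29.2 CPM, and the 3 triangles are the 3 highest points in 7 of the 10 panels.

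Most members were highest in the 3 high-Egfr libraries. For 7 of the 10 members (Fasl, Tnfsf10, Tnfrsf1a, Tnfrsf1b, Casp8, Cflar and Ripk3) these 3 libraries held the 3 highest values of all 24, and 26.1% of all tested genes did the same. Casp8 stood at 43.4 to 70.0 CPM in them against 3.57 to 13.5 in the other 21, and Ripk3 at 5.04 to 9.26 against 0.441 to 2.39. Fas, at 4.68 to 14.4 against 1.76 to 24.02, Tnf, at 4.58 to 7.95 against 0.192 to 29.2, and Tnfrsf10b, at 4.14 to 5.77 against 1.12 to 5.56, did not have all 3 of their highest values there, although the highest Tnfrsf10b value was in aCD40 replicate 1. The part of graft, immune and brain cell content in these levels was not tested.

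**Figure D2:**
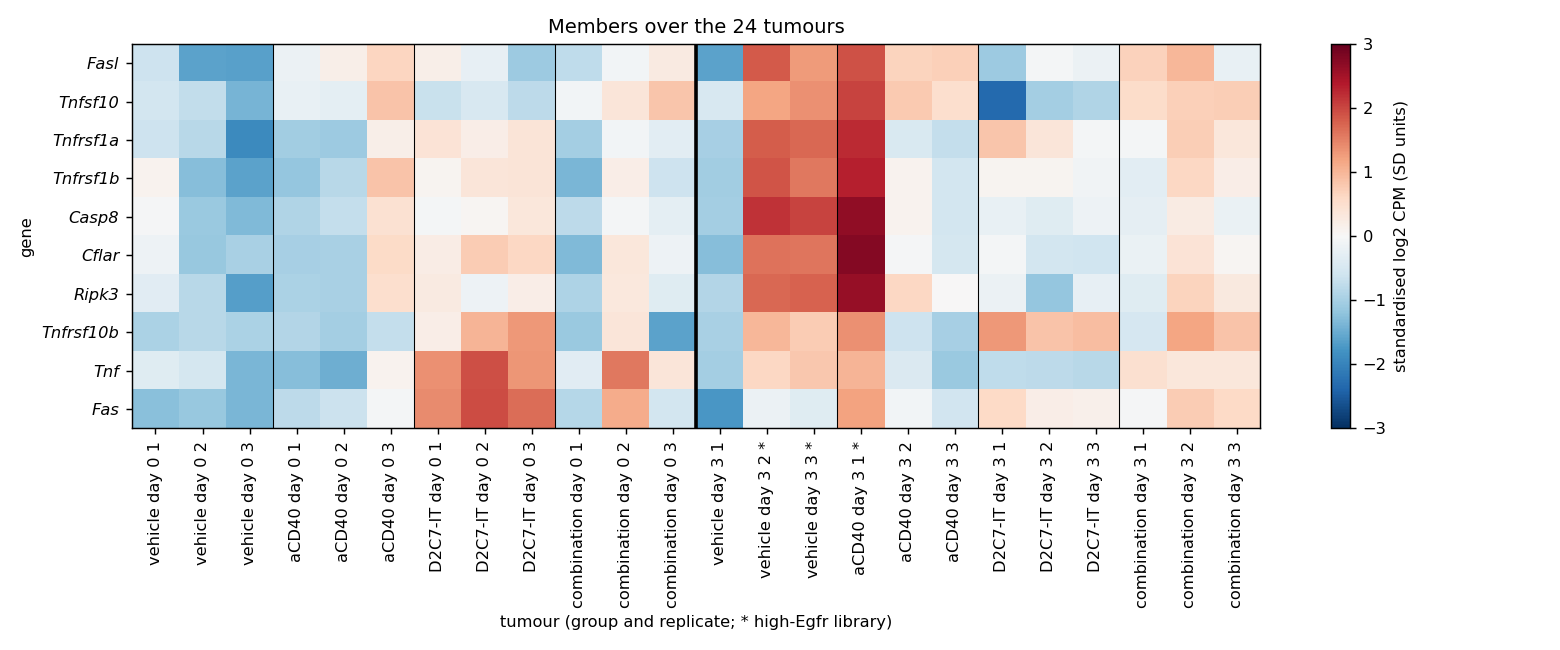
Standardised log2 CPM of the 10 genes (rows) in the 24 tumours (columns, by group and replicate; an asterisk marks a high-Egfr library), in SD units from the mean of each gene. The upper 7 rows have their 3 highest values in the 3 marked libraries, and the lowest 2 rows, Tnf and Fas, have their highest value in D2C7-IT replicate 2 of day 0.

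With all 8 groups in the fit, no member passed edgeR's test in the comparisons that were tested. Over 17 comparisons, 15 planned and 2 added after the levels were seen, edgeR called 0 of the 10 members at an adjusted p under 0.05 over all genes. It called 0% of all genes in 13 of the 17, and 0.0404% for the combination against vehicle at day 3, 0.0583% for day 3 against day 0 in aCD40, 0.00449% for the same in D2C7-IT, and 0.00898% for the mean effect of aCD40 at day 3. Of 162 member tests, leaving out 8 of Fas, 33 (20.4%) had an unadjusted p under 0.05, against 8.28% over all genes. Among the 33, 8 were in vehicle at day 3 against day 0 and 5 in D2C7-IT against vehicle at day 3. Both of these comparisons hold the day 3 vehicle tumours. The 17 comparisons reuse the same 24 tumours and the members vary together. These tests are therefore not independent, and nothing about the members is read from the pooled share. DESeq2 called 2 members in D2C7-IT against vehicle at day 3, 6 in vehicle at day 3 against day 0, 1 in D2C7-IT at day 3 against day 0, and 0 in the other 14. DESeq2 called 12.9%, 11.0% and 0.121% of all genes in those 3 comparisons. The p-values measure the spread between the labelled tumours, pooled over all 8 groups, with 3 tumours in each.

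Tnf, which encodes a cytokine that signals through both TNF receptors (ENSMUSG00000024401, chromosome 17, 35199381 to 35202007, minus strand), was highest after D2C7-IT at day 0. Its level there was 13.4, 29.2 and 12.3 CPM in the 3 tumours, against 1.11, 0.868 and 0.220 in vehicle and 0.267, 0.192 and 2.18 in aCD40. In the combination at day 0 the tumours stood at 1.14, 17.8 and 3.20, so that replicate 2 alone reached the D2C7-IT range. D2C7-IT tumours at day 3 held 0.602, 0.571 and 0.544 CPM, below every D2C7-IT tumour of day 0 and the lowest mean of the 8 groups. This difference between the days had a log2 value of -4.99 ± 1.31, with an edgeR adjusted p = 0.89 from the spread of all groups, 0.026 with only these 2 groups fitted and 0.0061 in DESeq2. The set was selected on Fas in these same day 0 D2C7-IT tumours, and Tnf was the member nearest to Fas in pattern (0.568). The p-values between the days are therefore not independent of that choice. The combination at day 3 held 3.68, 3.03 and 3.04 CPM, above every D2C7-IT tumour of that day (2.50 ± 1.19, edgeR adjusted p = 1, and 0.036 with only these 2 groups). Vehicle at day 3 held 0.407, 4.58 and 6.01 and aCD40 7.95, 0.977 and 0.339 CPM, so the 3 high-Egfr libraries hold the upper values of both groups. The combination differed from vehicle at day 0 by 3.29 ± 1.21 (edgeR adjusted p = 1), which was 1.54 without combination replicate 2.

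Tnfsf10, which encodes TRAIL (ENSMUSG00000039304, chromosome 3, 27317028 to 27342427, plus strand), stood higher with aCD40 than without it at day 0, and at day 3 where D2C7-IT was also given. At day 0 vehicle tumours held 5.04, 4.42 and 2.73 CPM and D2C7-IT tumours 4.61, 5.32 and 4.25. aCD40 tumours held 6.38, 6.07 and 13.8 and combination tumours 6.97, 9.69 and 13.5. All 6 tumours with aCD40 were therefore above all 6 without it, a split that 0.251% of all genes showed in the same direction. The mean effect of aCD40 over both arms, a comparison added after these levels were seen, was 1.10 ± 0.35 (unadjusted p = 0.0062, edgeR adjusted p = 1). At day 3 D2C7-IT tumours held 1.37, 3.56 and 3.91 CPM and combination tumours 11.1, 12.4 and 12.6, with no overlap (2.03 ± 0.52, unadjusted p = 0.00095, edgeR adjusted p = 1). aCD40 and vehicle overlapped on that day, at 31.8, 13.1 and 10.6 and 5.24, 17.4 and 19.8 CPM, where the highest 3 values were the high-Egfr libraries. The mean effect of aCD40 at day 3 was 1.21 ± 0.35 (edgeR adjusted p = 0.83), and 1.62 without the 3 high-Egfr libraries. In the same day 0 tumours, of endothelial markers in aCD40 against vehicle, 9 of 9 were higher on average and 6 without overlap, with a sum of 454 to 568 against 296 to 337 CPM, and of NK and cytotoxic markers 8 of 8 were higher on average and 0 without overlap. Of neutrophil markers, 13 of 13 were higher on average and 5 without overlap, with Ly6g at 0 in vehicle. Their sum was 19.3 to 42.4 against 13.4 to 34.1 CPM, and 4 of 6 erythroid markers were lower without overlap. In the combination against D2C7-IT at day 0, 5 of 13 neutrophil markers were higher on average, 1 higher and 6 lower without overlap. Their sum there was 18.5 to 33.5 against 42.0 to 46.5 CPM. Of NK and cytotoxic markers there, 6 of 8 were higher on average, 1 higher and 2 lower without overlap. Of endothelial markers, 7 of 9 were higher on average, 3 higher and 1 lower without overlap, and 5 of 6 erythroid markers were lower without overlap. The part of these cells in the Tnfsf10 level was not tested.

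Most markers of NK, T and endothelial cells and of monocytes and macrophages also stood higher in the combination beside the Tnf and Tnfsf10 difference from D2C7-IT at day 3. Of NK and cytotoxic markers, 8 of 8 were higher on average and 7 without overlap, with a sum of 11.4 to 17.2 against 2.00 to 4.94 CPM. Of T cell markers, 9 of 10 were higher on average and 8 without overlap, with a sum of 31.4 to 45.7 against 11.5 to 30.7 CPM. Of endothelial markers, 8 of 9 were higher on average and 5 without overlap, with a sum of 417 to 485 against 348 to 361 CPM. Of monocyte and macrophage markers, 7 of 9 were higher on average and 4 without overlap, with a sum of 236 to 504 against 215 to 386 CPM. No marker of these 4 lists was at 0 in either group. Of other lists, 6 of 6 erythroid and 6 of 6 oligodendrocyte markers were higher on average, 1 and 0 without overlap. Of neutrophil markers 9 of 13 were higher on average, 1 higher and 1 lower without overlap. Fewer were higher on average in the dendritic cell (3 of 7), microglia (2 of 7) and neuron (2 of 7) lists. The part of these cells in the Tnf and Tnfsf10 levels was not tested.

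Fasl, the ligand of Fas made by activated T and NK cells (ENSMUSG00000000817, chromosome 1, 161780689 to 161788495, minus strand), was the scarcest member, at 0.132 to 0.331 CPM in vehicle tumours at day 0. Every aCD40 tumour of that day was above them, at 0.480, 0.639 and 0.930 CPM (1.72 ± 0.75, edgeR adjusted p = 1). Fasl and Tnfsf10, and as a description Fas, did not overlap in this comparison, where 3.99% of all genes were higher without overlap. At day 3 the 3 high-Egfr libraries held 1.52 to 2.47 CPM against at most 1.23 in all others. D2C7-IT at day 3 stood at 0.413 ± 0.171 CPM against 1.32 ± 1.10 in vehicle (-1.67 ± 0.71, edgeR adjusted p = 0.14), and without the high-Egfr libraries the log2 value turned to 1.60.

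Fas, the receptor of Fas ligand (ENSMUSG00000024778, chromosome 19, 34290666 to 34327772, plus strand), was the member by which the set was chosen. D2C7-IT tumours at day 0 held 16.4, 24.02 and 19.8 CPM and vehicle tumours 2.51, 2.74 and 2.29, a log2 difference of 3.00 given as a description. In the combination at day 0 the tumours held 3.34, 13.2 and 4.15 CPM, above all vehicle and below all D2C7-IT tumours, with replicate 2 well above the other 2. The log2 difference from D2C7-IT was -1.54, and -2.42 without that replicate. These comparisons of the combination are a description, since Fas was chosen on the D2C7-IT and vehicle tumours of that day. aCD40 at day 0 held 3.47, 3.83 and 5.81 CPM. At day 3, in tumours that the choice did not use, D2C7-IT held 9.23, 7.03 and 6.79 and the combination 5.91, 10.5 and 9.22 CPM, and every one of these 6 tumours was above the 3 vehicle tumours (1.76, 5.42 and 4.68). The differences were 0.96 ± 0.51 for D2C7-IT (edgeR adjusted p = 0.22) and 1.11 ± 0.51 for the combination (edgeR adjusted p = 0.19). Fas was the only member higher without overlap in either, where 7.43% and 8.06% of all genes were. Without the 3 high-Egfr libraries the log2 values were 2.13 and 2.30 against the single vehicle tumour left. aCD40 at day 3 held 14.4, 5.72 and 4.09 CPM and overlapped all other day 3 groups. In D2C7-IT against vehicle at day 3, 6 of 6 erythroid markers were higher without overlap, while 0 of 10 T cell, 0 of 8 NK and cytotoxic and 0 of 7 graft and cell cycle markers were higher on average. Without overlap, 3 of 13 neutrophil and 2 of 6 astrocyte markers were higher there, and 1 of 9 endothelial markers was higher and 1 lower. For the combination against vehicle, 6 of 6 erythroid and 6 of 13 neutrophil markers were higher without overlap. So were 5 of 9 endothelial and 3 of 6 astrocyte markers, while 1 neutrophil and 1 endothelial marker were lower. There too, 0 of the T cell, NK and graft and cell cycle markers were higher on average. Vehicle replicate 1, of low Egfr, had a graft and cell cycle sum of 26.6 CPM, below the D2C7-IT tumours at 49.0 to 84.3. Its T cell and NK sums, 26.3 and 2.50 CPM, lay within the D2C7-IT ranges of 11.5 to 30.7 and 2.00 to 4.94. The part of these cells in the day 3 differences was not tested.

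Markers of myeloid, endothelial and other cells differed in the same day 0 tumours. Of neutrophil markers in D2C7-IT against vehicle, 13 of 13 were higher on average and 7 without overlap, with a sum of 42.0 to 46.5 against 13.4 to 34.1 CPM, with Ly6g at 0 in vehicle. Of monocyte and macrophage markers, 9 of 9 were higher on average and 5 without overlap, with a sum of 269 to 555 against 66.0 to 337 CPM. Of endothelial markers, 7 of 9 were higher on average and 5 without overlap, with a sum of 416 to 465 against 296 to 337 CPM. T cell markers (10 of 10) and graft and cell cycle markers (7 of 7) were higher on average, 0 of either without overlap. Fewer were higher on average in the microglia (3 of 7), neuron (1 of 7) and erythroid (1 of 6) lists. In the combination against D2C7-IT, 0 of 9 monocyte and macrophage markers were higher on average and 6 were lower without overlap, and 7 of 7 graft and cell cycle markers were lower without overlap. The part of these cells in the Fas and Tnf levels was not tested.

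Over the contrast that chose Fas, all 10 members had a log2 value above 0, with a median of 1.07 against -0.01 over all genes. Tnf had the highest at 4.61 ± 1.28 and Tnfsf10 the lowest at 0.21 ± 0.50, and nothing is read from these values.

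Tnfrsf10b, the mouse TRAIL receptor with a death domain (ENSMUSG00000022074, chromosome 14, 69767472 to 69784411, plus strand), was near 1.67 CPM without D2C7-IT at day 0. Vehicle tumours held 1.63, 1.74 and 1.63 and aCD40 tumours 1.68, 1.57 and 1.84 CPM, with an SD of 0.0599 and 0.136. D2C7-IT tumours at day 0 held 3.05, 4.74 and 5.56 CPM, all above both, and those of day 3 held 5.56, 4.34 and 4.53. The combination stood at 1.49, 3.32 and 1.12 at day 0 (-1.17 ± 0.50 against D2C7-IT, edgeR adjusted p = 1) and 2.07, 5.23 and 4.38 at day 3. Vehicle replicate 1 at day 3, at 1.60 CPM, lay with the day 0 vehicle tumours, and replicates 2 and 3, at 4.67 and 4.14, lay with the D2C7-IT tumours.

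Tnfrsf1a (ENSMUSG00000030341, chromosome 6, 125349362 to 125362484, plus strand) and Tnfrsf1b (ENSMUSG00000028599, chromosome 4, 145213463 to 145246870, minus strand), the receptors TNFR1 and TNFR2, were highest in the same libraries. After D2C7-IT at day 0, Tnfrsf1a stood at 44.9, 39.8 and 44.4 CPM, above the vehicle (25.2, 22.6 and 12.3) and the combination tumours (20.2, 33.9 and 30.0). Tnfrsf1b stood at 24.1, 29.9 and 30.3 CPM there against 24.7, 8.79 and 6.92 in vehicle, where replicate 1 lay inside the D2C7-IT range. In the 3 high-Egfr libraries Tnfrsf1a reached 92.9 to 123 and Tnfrsf1b 73.9 to 129.7 CPM. Their ratio within a library, Tnfrsf1b counts over Tnfrsf1a counts, ran from 0.796 to 1.05 in these 3 and from 0.389 to 1.08 in the other 21. These ranges overlapped.

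Casp8, the initiator caspase, and Cflar, its inhibitor, are neighbours on chromosome 1 of GRCm38, Cflar first (ENSMUSG00000026031, chromosome 1, 58711508 to 58758884, plus strand) and Casp8 after it (ENSMUSG00000026029, chromosome 1, 58795374 to 58847503, plus strand), and their balance differed between libraries. Cflar counts were 3.29 to 7.10 times the Casp8 counts in 21 libraries. In the 3 high-Egfr libraries they were 1.35 to 1.49 times, below every other library, with 1.35 and 1.49 in vehicle replicates 2 and 3 and 1.40 in aCD40 replicate 1. Both genes were highest in these libraries, Casp8 at 43.4 to 70.0 against 3.57 to 13.5 CPM and Cflar at 64.8 to 97.9 against 22.4 to 47.7, and Casp8 stood further above the rest. Within the 12 day 0 libraries the ratio was 3.61 to 7.10 in vehicle, 3.29 to 5.12 in aCD40, 3.63 to 4.76 in D2C7-IT and 4.19 to 4.42 in the combination, all 4 ranges overlapping. The ratio was picked after its values were seen, and no test is given.

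**Figure D3:**
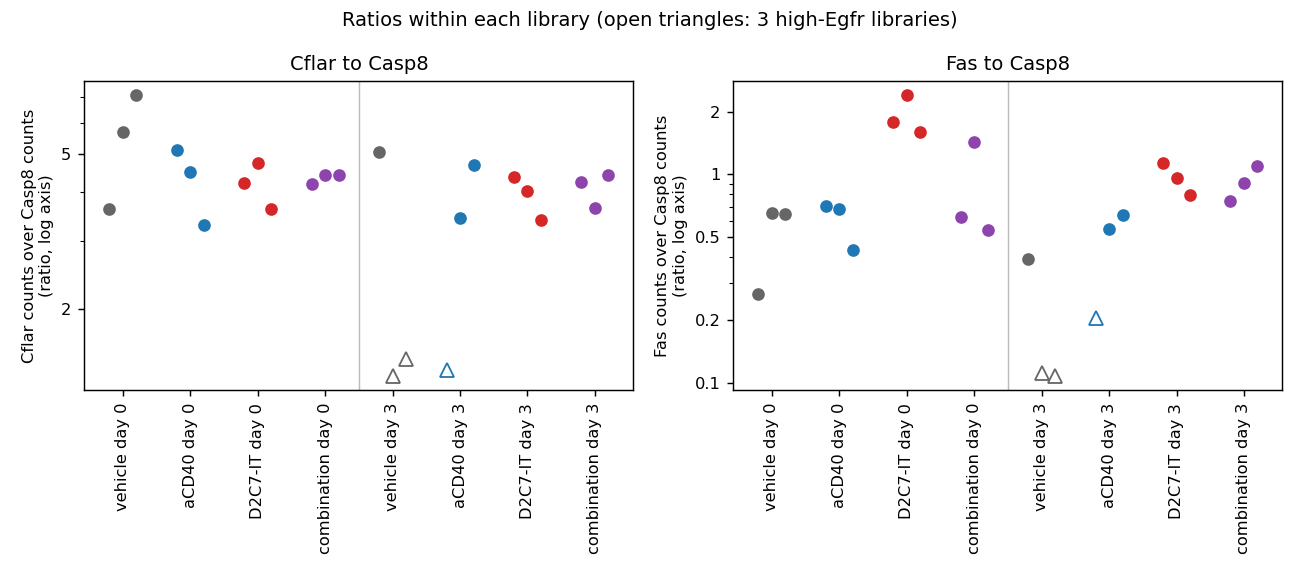
Ratio of Cflar to Casp8 counts (left) and of Fas to Casp8 counts (right) within each library, on log axes, by group; open triangles are the 3 libraries of high Egfr. The triangles lie at 1.35 to 1.49 on the left, below all others, and the D2C7-IT and combination tumours of day 3 lie at 0.748 to 1.14 on the right, above the other day 3 tumours.

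The ratio of Fas to its effector differed between the arms at day 3. Fas counts were 0.748 to 1.14 times Casp8 counts in the 6 tumours given D2C7-IT and 0.108 to 0.641 times in the 6 not given it, with no overlap. The 3 high-Egfr libraries, where Casp8 stood at 43.4 to 70.0 CPM, lay at 0.108 to 0.205. The 3 other tumours without D2C7-IT reached at most 0.641. Fas alone did not split the day 3 tumours, since aCD40 replicate 1 held 14.4 CPM, above all 6 given D2C7-IT. At day 0 the ratio was 1.59 to 2.40 in D2C7-IT and 0.539 to 1.43 in the combination, against 0.265 to 0.707 in the other 6 tumours. These day 0 values are a description, since Fas was chosen on the D2C7-IT and vehicle tumours of that day, and nothing is read from them. This ratio too was picked after its values were seen, and no test is given. The share of other gene ratios that split the day 3 tumours in this way is not given here.

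At day 3 Casp8 stood lower after D2C7-IT than in vehicle on average, a difference that turned with the high-Egfr libraries left out. D2C7-IT tumours held 8.10, 7.33 and 8.58 and combination tumours 7.91, 11.5 and 8.37 CPM, against 4.50, 48.5 and 43.4 in vehicle and 70.0, 10.4 and 6.39 in aCD40. The log2 difference was -2.01 ± 0.78 for D2C7-IT (edgeR adjusted p = 0.11, DESeq2 0.049) and -1.79 ± 0.77 for the combination (edgeR adjusted p = 0.17). Without the 3 libraries these values turned to 0.84 and 1.07, and the combination against aCD40 went from -1.64 ± 0.77 to 0.15. Leaving out vehicle replicate 1 instead, the vehicle tumour of low Egfr, took the D2C7-IT value to -2.52 (edgeR adjusted p = 0.014). Ripk3, the necroptosis kinase (ENSMUSG00000022221, chromosome 14, 55784995 to 55788865, minus strand), stood at 1.31, 0.639 and 1.25 CPM in D2C7-IT and 0.787, 5.04 and 5.19 in vehicle at day 3 (-1.78 ± 0.70, edgeR adjusted p = 0.12), and its value turned to 0.46 without the 3 libraries.

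In vehicle tumours the members stood higher at day 3 than at day 0 on average, and in D2C7-IT tumours 8 of the 10 stood lower on average. Of all genes, 50.6% had a log2 value above 0 between the days in vehicle and 51.0% in D2C7-IT. Fas is in these member counts and in the vehicle median below only as a description, since it was chosen on the day 0 tumours of both groups. All 10 members had a log2 value above 0 from day 0 to day 3 in vehicle, with a median of 1.97 against 0.01 over all genes. For Fasl it was 2.67 ± 0.76 (edgeR adjusted p = 0.11, DESeq2 0.022), for Casp8 2.48 ± 0.79 (0.11 and 0.024) and for Tnfsf10 1.80 ± 0.51 (0.11 and 0.022). Without the 3 high-Egfr libraries the first 2 turned to -0.61 and -0.37, and Tnfsf10 was 0.35. Only Tnfsf10 did not overlap between the days in vehicle, where 6.49% of all genes were higher without overlap. In D2C7-IT tumours, Tnf, Tnfsf10, Casp8, Cflar and Ripk3 were lower at day 3 without overlap, and so were 6.36% of all genes. Fas was lower without overlap too, but it was chosen for its level in these day 0 tumours, so nothing is read from its value. The other members entered the set by name, in view of the same tumours. None of those libraries was of high Egfr, and the graft and cell cycle markers summed to 49.0 to 84.3 CPM at day 3 against 95.7 to 121 at day 0, with 0 of 7 markers at 0. Of the other lists in D2C7-IT tumours, 5 of 9 monocyte and macrophage, 5 of 9 endothelial and 4 of 13 neutrophil markers were lower at day 3 without overlap, and their part was not tested. The change of the combination effect from day 0 to day 3 was -3.47 ± 1.61 for Tnf and -1.54 ± 0.70 for Tnfsf10 (edgeR adjusted p = 0.55 for both), and without the 3 libraries -0.26 and -0.07.

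**Figure D4:**
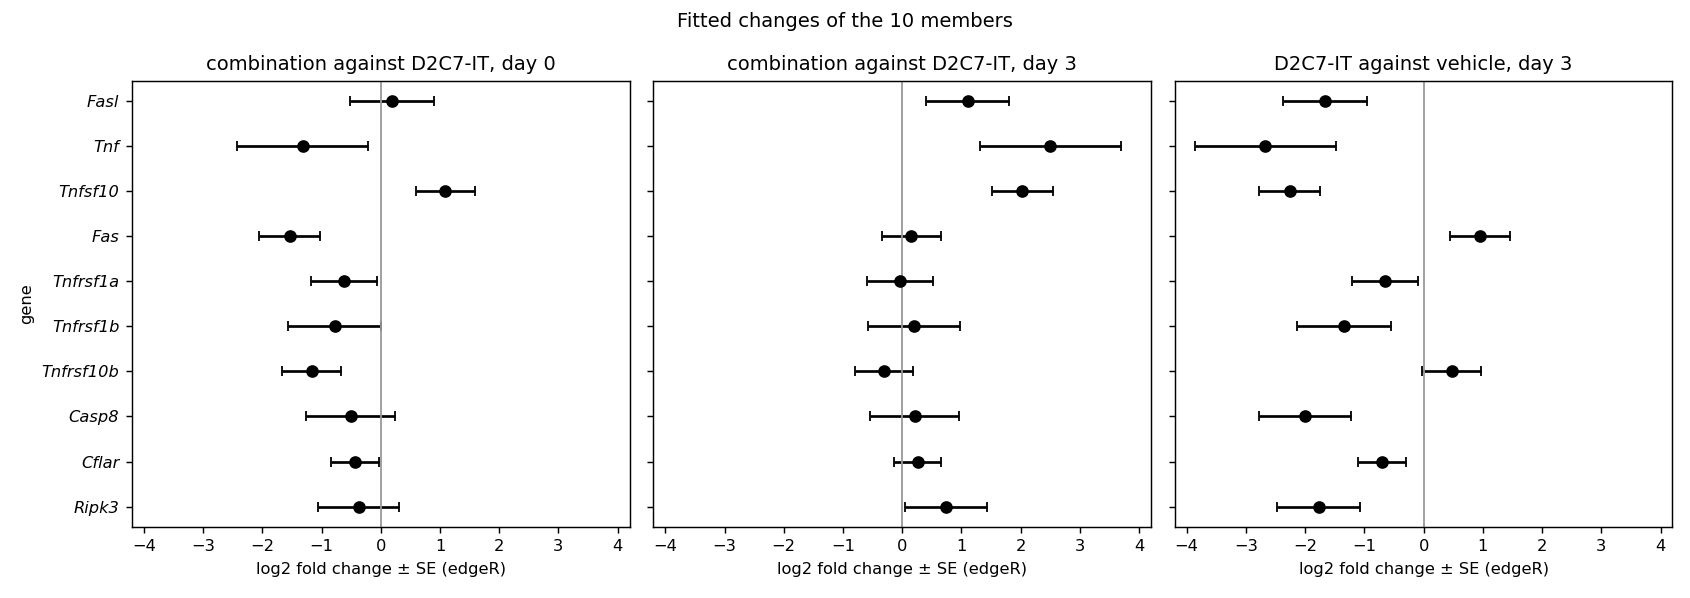
Log2 fold changes of the 10 genes from edgeR (points, with SE as bars) for the combination against D2C7-IT at day 0 and day 3, and for D2C7-IT against vehicle at day 3; right of 0 is higher in the first-named group. At day 3 Tnfsf10 and Tnf stand at 2.03 and 2.50 in the combination, and Fas is the member farthest above 0 in D2C7-IT against vehicle, at 0.96. Fas at day 0 is shown as a description, since it was chosen on those D2C7-IT tumours.

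Of the members, Tnfsf10 was higher without overlap in the combination than in D2C7-IT on both days. At day 0, 6.07% of all genes were higher and 8.53% lower without overlap in the combination, and Tnfsf10 was among the higher (1.09 ± 0.50, edgeR adjusted p = 1) and Tnfrsf1a among the lower, as was Fas, which was chosen on these D2C7-IT tumours and is a description here. At day 3, 6.27% of all genes were higher without overlap, among them Tnf and Tnfsf10. For the other 8 members the log2 values at day 3 lay between -0.31 (Tnfrsf10b) and 1.10 (Fasl). Against vehicle at day 0 the combination was higher without overlap in Tnf and Tnfsf10, and as a description in Fas, and so were 5.45% of all genes. In D2C7-IT against vehicle on the same day 6 members were higher without overlap (Cflar, Fas, Ripk3, Tnf, Tnfrsf10b and Tnfrsf1a), where 11.0% of all genes were and 0.0808% passed edgeR, a description of the contrast that chose Fas. At day 3 the only member lower without overlap in D2C7-IT against vehicle was Tnfsf10 (-2.26 ± 0.52, edgeR adjusted p = 0.08, DESeq2 0.0018), where 5.78% of all genes were, and it was -0.81 without the 3 libraries.

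Around the members, 77 further genes of the pathway in 7 lists were read in the same way, and edgeR called 0 of them in any tested comparison. In D2C7-IT against vehicle at day 3, 4 had an unadjusted p under 0.05 with a higher and 24 with a lower value, against 9.96% and 18.3% of all genes. DESeq2 called 15 there, against the 12.9% of all genes given above. From day 0 to day 3 in vehicle the unadjusted counts were 40 and 2, against 22.0% and 8.15% of all genes, and DESeq2 called 25, against 11.0%. Without the 3 high-Egfr libraries the unadjusted counts were 9 higher and 0 lower for D2C7-IT against vehicle at day 3, where 4.61% and 1.06% of all genes were, and 0 and 0 in vehicle between the days. In the 3 high-Egfr libraries 36 of the 77 held their 3 highest values, against the 26.1% of all genes given above. Of the necroptosis list, Mlkl, the executor of necroptosis, stood at 79.7 to 123 CPM in the 3 libraries and at 0.397 to 10.8 in the other 21, and Zbp1, a nucleic acid sensor that can activate RIPK3, at 108 to 204 against 1.76 to 39.6. In D2C7-IT at day 3 Mlkl stood at 1.51, 1.48 and 1.43 and Zbp1 at 6.16, 5.92 and 6.17 CPM, and the differences from vehicle were -5.29 ± 1.61, edgeR adjusted p = 0.081 (DESeq2 0.0024), and -3.61 ± 1.06, edgeR adjusted p = 0.08 (DESeq2 0.0052). Without the 3 libraries the Mlkl difference turned to 1.07 ± 1.25 and that of Zbp1 was -0.12 ± 0.86, and the vehicle tumour left held 0.705 and 6.67 CPM.

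The other genes named were among those of smallest p in their list. Of the ligands, Ltb, which encodes lymphotoxin beta, stood at 51.6, 18.2 and 7.38 CPM in aCD40 at day 3 against 1.04, 1.66 and 4.67 at day 0 (3.38 ± 0.83, edgeR adjusted p = 0.21), and replicates 2 and 3, of low Egfr, were above all 3 day 0 tumours, while Lta, lymphotoxin alpha, stood at 4.49, 1.01 and 0.313 against 0.168 ± 0.146 (3.47 ± 0.94, edgeR adjusted p = 0.29), highest in the high-Egfr replicate 1. Without the 3 libraries the 2 differences were 2.37 ± 0.63 and 1.91 ± 0.82. Of the receptors, Tnfrsf22, a mouse TRAIL decoy receptor, reached 10.7 to 15.1 CPM in the 3 libraries against 0.926 to 2.63, and Ltbr, the lymphotoxin beta receptor, 82.3 to 85.9 against 7.72 to 24.7. Adam17, the protease that sheds TNF, lay at 79.6 to 117 CPM against 19.8 to 46.2. Faf1, a FAS-associated factor, lay at 70.2 to 74.1 against 26.6 to 43.6 and Tnfaip8, a TNF-induced regulator, at 30.9 to 41.5 against 10.0 to 22.3. Map3k5, the kinase ASK1, was lower there, at 25.8 to 32.2 against 34.2 to 72.0. Against vehicle at day 3 the combination held Tnip2, a partner of A20, at 26.5 ± 2.90 against 20.3 ± 0.956 CPM (0.38 ± 0.13, edgeR adjusted p = 0.11), and Sppl2b, a protease that cleaves the TNF stub, at 42.1 ± 2.45 against 49.8 ± 0.982 (-0.24 ± 0.09, edgeR adjusted p = 0.13). Without the 3 libraries these were 0.34 ± 0.17 and -0.24 ± 0.11.

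Likeness to other genes was measured as the mean absolute difference of standardised log2 CPM over the 24 tumours, where 0 is the same pattern. The median difference from all genes with at least 1 CPM was 1.04 to 1.13. The nearest genes were Tnfaip3 (0.271), Tnfaip2 (0.277) and Icam1 (0.295) for Fas, Nlrp3 (0.34), Ccrl2 (0.351) and Ccl9 (0.402) for Tnf, Irgm2 (0.187), Gzma (0.231) and Tgtp2 (0.243) for Tnfsf10, and for Fasl they included Klrc1 (0.313) and Lck (0.336). For Tnfrsf1a they were Parp3 (0.182), Slc39a1 (0.183) and Cstb (0.186), for Tnfrsf1b Elf4 (0.166), Sh3bp2 (0.17) and Ctsh (0.171) and for Tnfrsf10b Cyp27b1 (0.223), Snhg15 (0.235) and Gnl3 (0.257). For Casp8 they were Wipf1 (0.131), B4galt1 (0.137) and Vasp (0.138), for Cflar Nfkb1 (0.189), Plcg2 (0.199) and Zmynd15 (0.202) and for Ripk3 Gpsm3 (0.198), Ostf1 (0.202) and Jak3 (0.213). Among the members themselves, Tnfrsf1b and Casp8 were closest (0.238), while Fas and Tnfsf10 were farthest apart (1.08).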

How the data were processed

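The authors deposited raw read counts per gene, 24 libraries of 49315 Ensembl genes; 36 columns were read, of which 12 repeat a library and 0 differ. Per the submitters' processing notes, reads were converted with bcl2fastq 2.17, trimmed with Trimmomatic 0.36, aligned to GRCm38 with STAR 2.5.2b and counted with featureCounts (Subread 1.5.2). The annotation release and the strand setting were not given in the sources used here, and the NEBNext Ultra kit does not mark strand, so overlapping and antisense genes cannot be told apart. Symbols came from GENCODE M21 (49056 named). In R 4.3.3, edgeR 4.0.16 kept 22280 genes (filterByExpr), scaled them by TMM and fitted 8 group means (quasi-likelihood, 16 residual degrees of freedom, common biological variation 0.412), with Benjamini-Hochberg adjustment over all genes at 0.05; SE is the log2 fold change over the root of F. DESeq2 1.42.0 was an alternative, with other scalings, filters, subsets and left-out tumours. Members and lists were chosen with earlier results of these data known. All members were named, and of each pathway list the genes called, otherwise the 2 of smallest p; some genes that this rule or the likeness measure names are not reported here. Likeness used log2 CPM with prior count 2. The code was tested on simulated data. Replicates differed by at least 28.2 in chi-square per degree of freedom over 24 pairs. Replicate numbers did not pair tumours: in 0 of 14 comparisons was every pair's correlation above 0.1. The TMM factors ran from 0.919 to 1.06.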

Additional observations from a re-analysis of the deposited data

How the results depend on the processing

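Of 507 alternative values for 39 named effects, 497 kept their direction, 10 turned and 18 passed the threshold where edgeR's main value had not; of 160 alternative levels 159 moved by less than the spread between tumours, and of 237 alternative counts of called members 228 did not move. With the replicate block, edgeR called 0 members in every comparison. By DESeq2 the members called were 2 in D2C7-IT against vehicle at day 3, 6 in vehicle at day 3 against day 0 and 1 in D2C7-IT at day 3 against day 0; with only the groups compared, 1 (Tnf) was called in the last and 1 (Tnf) in the combination against D2C7-IT at day 3. Leaving out 1 tumour at a time gave 0 to 6 called in D2C7-IT against vehicle at day 3 (6 without vehicle replicate 1, 1 without D2C7-IT replicate 3), 0 to 1 in the combination against vehicle at day 3 and 0 to 8 in vehicle between days (both highest without vehicle day 3 replicate 1). Leaving that tumour out keeps vehicle replicates 2 and 3, both of high Egfr. The shares of all genes called in these fits with fewer tumours are not given here, so nothing about the members is read from the counts. Without the 3 high-Egfr libraries, which leaves 1 vehicle tumour at day 3 assumed to vary like the other groups, log2 values turned to 0.84 for Casp8, 1.60 for Fasl, 0.46 for Ripk3 and 0.50 for Tnf in D2C7-IT against vehicle at day 3. Casp8 turned to 1.07 in the combination against vehicle and to 0.15 against aCD40 (0.14 without aCD40 replicate 1), and between the days in vehicle Casp8 turned to -0.37 and Fasl to -0.61. Leaving out 1 tumour at a time, Tnfsf10 in D2C7-IT against vehicle at day 0 ran from -0.00205 (without vehicle replicate 3) to 0.40, and Casp8 in the combination against aCD40 at day 3 from -2.11 to 0.14. Without combination replicate 2 the day 0 Fas values were 0.57 against vehicle and -2.42 against D2C7-IT, both a description. Mean Tnfrsf10b in vehicle at day 0 was 1.61 CPM without TMM. The causes were not tested. With 3 tumours a group, a difference that was not called is not read as absent. In edgeR's main fit, Tnf went uncalled between the days in D2C7-IT although the tumours did not overlap.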
